A study of Mus musculus with 4 samples.

Results

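The transcripts of 10 genes of the inflammatory cytokine and NF-kB group were examined in mouse embryonic fibroblasts (MEFs) that carry or lack Ip6k1, which encodes an inositol hexakisphosphate kinase: the IL-6 family ligands Il6, Il11 and Lif, the ligands Csf1 and Il33, the IL-33 receptor Il1rl1, the prostaglandin enzymes Ptgs2 and Ptges, and the NF-kB feedback inhibitors Tnfaip3 and Nfkbia. They were chosen for their role with earlier results of these data known, and a probe was taken where its gene name on the array equalled one of these symbols. This gave 12 probes for 9 of the 10 genes, among 27827 gene names on 41174 probes. No probe carries the name Lif. Il6 was the 1 member lower in both Ip6k1-/- lines by the 2-fold cutoff. It was lower by at least 7.07-fold (log2 size 2.82) in the processing used here. With another background correction it was lower by less, a log2 difference of -1.86. No member passed limma with Benjamini-Hochberg adjustment. Il1rl1 was brighter in both Ip6k1-/- lines than in both Ip6k1+/+ lines on all 3 of its probes, mostly through 1 line, and each other member differed less between genotypes than between the lines of at least 1 genotype.

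The samples were 2 Ip6k1+/+ and 2 Ip6k1-/- MEF lines, each grown from 1 embryo at embryonic stage E14 and measured on 1 single-colour Agilent array. All 4 embryos were littermates from heterozygous parents, and all 4 lines carry SV40 large T antigen, which immortalised them. Cells were growing exponentially and the labels name no cytokine or other stimulus, so the values describe basal transcript levels in immortalised lines. The deletion was inherited through the germline and so is present in every cell of an Ip6k1-/- line. A difference can come from fewer expressing cells or from less RNA per cell, and these cannot be told apart in bulk RNA.

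NF-kB is a family of dimeric transcription factors held in the cytoplasm by inhibitors such as IkB-alpha, the product of Nfkbia, until a signal from a cytokine or pattern receptor leads to the destruction of the inhibitor. The released dimers switch on cytokines, chemokines, Ptgs2 and, as negative feedback, Nfkbia itself and Tnfaip3, whose product A20 edits ubiquitin chains upstream of the kinase that triggers release. Fibroblasts are a well-known source of IL-6, which signals through the shared receptor chain gp130 to STAT3.

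Sequences upstream of the start are shown for the 3 members with the most negative differences whose window holds the NF-kB consensus, so that the consensus can be read in its surroundings. Each is the 250 bases before the RefSeq start on the gene's own strand in GRCm38.p6, and capitals mark the 10-letter NF-kB consensus, searched on both strands with a match that reads on both counted once. In Il6 (chr5:30012864-30013113, plus strand) it lies 44 to 35 bases before the start. In Tnfaip3 (chr10:19015411-19015660, minus strand) there are 2 matches, 125 to 116 and 12 to 3 bases before the start. In Nfkbia (chr12:55492648-55492897, minus strand) the match lies 29 to 20 bases before the start.
Il6: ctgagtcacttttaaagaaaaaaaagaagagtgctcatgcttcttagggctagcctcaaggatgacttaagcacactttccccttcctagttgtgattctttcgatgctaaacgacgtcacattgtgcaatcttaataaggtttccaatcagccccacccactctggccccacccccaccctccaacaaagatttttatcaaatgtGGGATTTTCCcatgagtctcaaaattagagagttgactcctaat
Tnfaip3: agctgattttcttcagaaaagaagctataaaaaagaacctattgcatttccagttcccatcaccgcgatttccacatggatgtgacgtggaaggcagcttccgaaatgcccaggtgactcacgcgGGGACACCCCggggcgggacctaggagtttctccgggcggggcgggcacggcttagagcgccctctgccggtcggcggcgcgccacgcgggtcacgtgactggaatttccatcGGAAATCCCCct
Nfkbia: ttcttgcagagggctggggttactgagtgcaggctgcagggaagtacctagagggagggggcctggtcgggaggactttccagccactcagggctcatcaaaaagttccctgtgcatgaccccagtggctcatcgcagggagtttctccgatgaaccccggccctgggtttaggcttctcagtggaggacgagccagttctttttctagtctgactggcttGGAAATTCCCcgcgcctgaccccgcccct

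Over windows of 300 bases, 250 before and 50 after each start, 5 of the 10 members held the consensus, the other two being Csf1 and Lif. Of 27025 genes in the RefSeq table, 9.55% held it. Csf1, with a match 154 to 145 bases before its start, had a log2 difference near 0, and Ptges, with a large negative difference, had no match in its window. These letters are a description of the window, and binding was not measured here.

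Both splice-spanning member probes are also given, because their 60 bases join stretches that lie apart in the genome, so they read spliced RNA. The Il1rl1 probe A_52_P19955 covers 863 bases (mm9, chr1:40498342-40499204, plus strand) and the Nfkbia probe A_51_P295192 covers 496 bases (mm9, chr12:56590945-56591440, minus strand). The other 10 member probes match an unbroken stretch of the genome.
Il1rl1 probe A_52_P19955: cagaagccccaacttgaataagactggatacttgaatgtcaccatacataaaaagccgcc
Nfkbia probe A_51_P295192: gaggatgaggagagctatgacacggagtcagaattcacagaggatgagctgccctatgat

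Signals are given as log2 of the background-subtracted spot signal minus the log2 of the 75th percentile of that array, so 0 is the 75th percentile and each unit is a 2-fold step. Per array, 52.0% to 55.5% of the probes exceeded background clearly by the scanner software's own flag, called well above background here. Ip6k1 itself was first checked on its 3 probes. On A_51_P213766 Ip6k1+/+ lines read 0.36 and 0.39 and Ip6k1-/- lines -6.88 and -6.80, where it was not well above background. This was at least 34.1-fold lower (limma adjusted p = 0.0347), and A_52_P413035 was at least 32.8-fold lower (limma adjusted p = 0.0347). On A_51_P103718 the Ip6k1-/- lines stayed well above background, at -1.98 and -1.22 against 2.46 and 2.61 in Ip6k1+/+, a log2 difference of -4.14 (limma adjusted p = 0.356). All 10 fibroblast markers listed were well above background in all 4 lines, with Col1a1, Col1a2 and S100a4 saturated on all 4 arrays. Among them Dcn and Pdgfrb were lower in Ip6k1-/- by the 2-fold cutoff defined below, with log2 differences of -2.40 and -1.20. Col3a1 gave -1.26 with no overlap of genotypes (limma adjusted p from 0.795 to 0.994 for these markers). Dcn, Pdgfrb and Col3a1 lay in the same direction as Il6, and Fn1 and Pdgfra gave -0.29 and -0.71 without passing the cutoff. Thy1 went the other way at 1.03, reading 1.42 and 6.02 in Ip6k1+/+ and 3.98 and 5.52 in Ip6k1-/- lines. Col1a1, Col1a2, S100a4 and Vim gave 0.05 to 0.08. Vim was saturated on every array but that of Ip6k1+/+ replicate 1. Of 10 macrophage and leukocyte markers, 6 were not well above background in any line, including Ptprc and Emr1. Cd14 and Cd68 were well above it in all 4 lines and Csf1r and Lyz2 in some. The summed signal of the 10 was 0.914 and 0.960 in Ip6k1+/+ and 0.899 and 0.743 in Ip6k1-/- lines. The 7 mast cell markers were not well above background in any line, while endothelial Kdr and epithelial Krt18 were well above it in all 4. The summed endothelial markers read 0.157 and 0.117 in Ip6k1+/+ and 0.196 and 0.412 in Ip6k1-/- lines, so both Ip6k1-/- lines were higher. Among them Kdr read -3.65 and -3.99 in Ip6k1+/+ and -2.94 and -1.59 in Ip6k1-/- lines. Its log2 difference was 1.56 (limma adjusted p = 0.994), and the other 5 were not well above background in any line. The summed epithelial markers read 0.758 and 3.15 in Ip6k1+/+ and 0.514 and 1.59 in Ip6k1-/- lines. The part of these markers in the results was not tested.

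The 2-fold cutoff, stricter than the study's on the mean alone, asked for a mean log2 difference of at least 1 between genotypes with each Ip6k1-/- line at least 0.9 away from the Ip6k1+/+ mean in the same direction. In all, 11 member probes for 8 genes were well above background in both lines of at least 1 genotype and were tested. By the cutoff 1 member, Il6, was lower, against 2.5% of the 14334 tested gene names, and no member was higher, against 1.49% (3.99% in either direction). No member probe reached a limma adjusted p of at most 0.05, as against 3 of all 21572 tested probes (0.0139%). Ip6k1 probes A_51_P213766 and A_52_P413035, of the deleted gene itself, are among those 3. The lowest adjusted p among members was 0.713. At an unadjusted p below 0.05 there was 1 member probe, again Il6, where 3.35% of tested probes and 4.42% of tested gene names were. Il6 passed the detection filter only through its Ip6k1+/+ lines, so these counts give it no support, and with probes required on all 4 arrays both counts were 0. Among the 7 members well above background in all 4 lines, the median log2 difference was -0.18, with 5 negative and 2 positive, against 0.04 over all tested gene names.

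**Figure D1:**
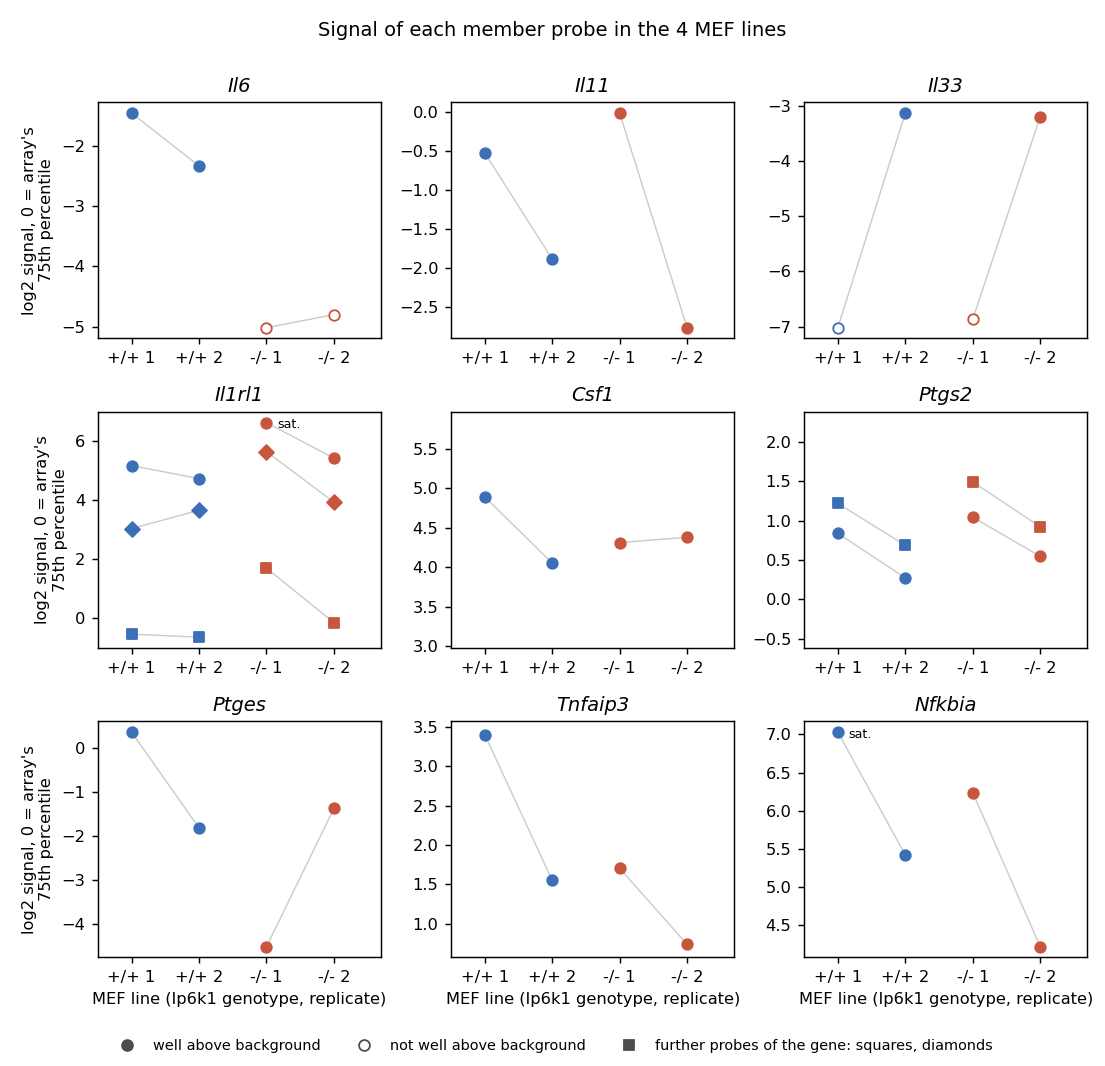
Log2 signal of each member probe (y axis, 0 is the 75th percentile of the array) in the 4 MEF lines (x axis, genotype and replicate number), with Ip6k1+/+ in blue and Ip6k1-/- in red. Open symbols were not well above background, squares and diamonds are further probes of the same gene, "sat." marks a saturated spot, and each panel has its own y scale. Only for Il6 does the gap between genotypes exceed the gap between lines of a genotype in both genotypes, with its Ip6k1-/- values near the detection limit.

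Il6 encodes interleukin-6, the founding member of the gp130 cytokine family. Its probe A_51_P217218 (mm9, chr5:30346362-30346421, plus strand) gave -1.45 and -2.33 for Ip6k1+/+ and -5.02 and -4.80 for Ip6k1-/- lines. The genotypes did not overlap, with both Ip6k1-/- lines below both Ip6k1+/+ lines as on 12.8% of all tested probes. Its genotype difference also exceeded the gap inside each genotype, as on 19% of all tested probes, and Il6 was well above background in both Ip6k1+/+ lines and in neither Ip6k1-/- line. The means were -1.89 ± 0.62 (SD, n = 2) and -4.91 ± 0.15 (SD, n = 2), a measured log2 difference of -3.02 (adjusted p = 0.713 over all probes tested, limma with Benjamini-Hochberg). The Ip6k1-/- values lie near the detection limit, so this difference and its interval in the plot of differences are not exact. The same limit holds for the gap of 0.22 inside Ip6k1-/- and for every measured Il6 difference given elsewhere. For the size of the difference the bound below is used. For the bound, each Ip6k1-/- line was set to the higher of its own signal and the dimmest signal its array still marked as well above background. In the processing used here Il6 was then at least 7.07-fold lower, a log2 size of 2.82. The deposited values and normexp gave smaller differences of -2.49 and -1.86, so the bound does not hold across processing. Both Ip6k1-/- lines read lower, with measured log2 differences from the Ip6k1+/+ mean of -3.13 and -2.91.

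The array carries the Il6 probe on 10 separate spots, which shows how well each line was read. Spot signals ran from 195 to 231 in Ip6k1+/+ replicate 1 and from 137 to 156 in replicate 2, with all 10 spots well above background on both arrays. In the Ip6k1-/- lines, after 1 outlier spot was dropped on each array, they ran from 14.8 to 22.1 and from 14.99 to 28.1. No spot range of 1 genotype reached that of the other. The log2 SD between spots was 0.07 for each Ip6k1+/+ array against 0.21 and 0.28 for the Ip6k1-/- arrays. In the Ip6k1-/- lines 9 of 9 spots per array were still marked positive and significant by the scanner software, but 0 and 1 of them well above background.

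The value deposited for Il6 in the Ip6k1-/- lines matched that of a single spot, where the value used here is a mean over 9. Once the array constant was removed, the deposited table gave -4.14 and -4.61 for these lines. The single spot well above background on each array gave -4.14 and -4.61 as well, and in Ip6k1-/- replicate 1 that spot was the one flagged as an outlier. The deposited values gave a log2 difference of -2.49, and background correction by normexp gave -1.86, both past the 2-fold cutoff in both lines.

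**Figure D2:**
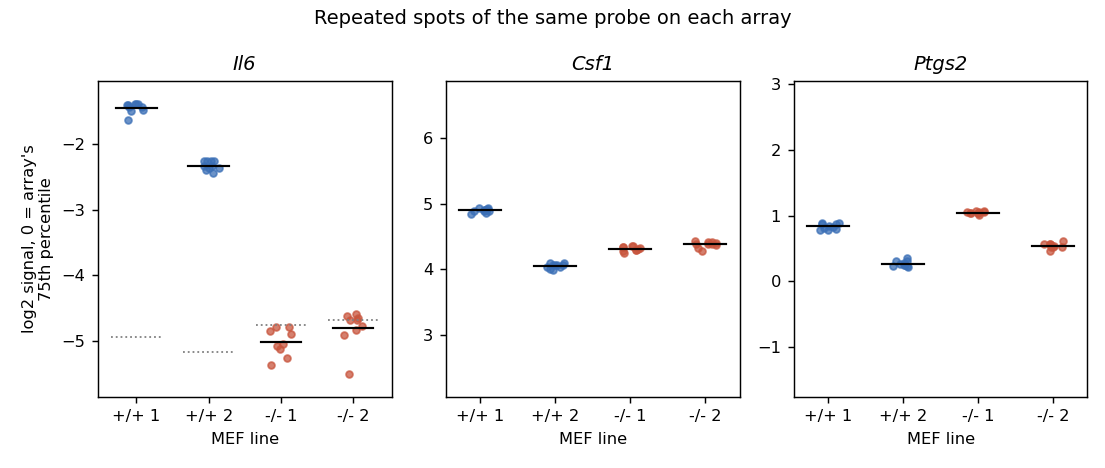
Log2 signal (y axis, 0 is the 75th percentile of the array) of each repeated spot of the Il6, Csf1 and Ptgs2 probes printed 10 times per array, in the 4 lines (x axis), with outlier spots left out. Black bars are the means over spots and dotted lines in the Il6 panel the lowest signal well above background on that array. Il6 spots of the Ip6k1-/- lines sit around the detection limit, while Csf1 and Ptgs2 spots of 1 array lie within a narrow band.

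The 5 gene names with patterns over the 4 lines closest to Il6 were found by the Euclidean distance between values centred on their own mean over the 4 lines. They were 1810037I17Rik at 0.353, AK087779 at 0.405, AI413782 at 0.470, Podn at 0.519 and Rrp7a at 0.522, and 27 probes lay within 1. Like Il6, AK087779, AI413782 and Podn were well above background only in the Ip6k1+/+ lines. Every distance rests on Il6 values near the detection limit, so the distances and their order are not exact. Podn encodes podocan, a secreted leucine-rich repeat protein, and Rrp7a a ribosomal RNA processing factor. None was a member or on a pathway list.

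Il11 and Csf1, the other ligands with a tested probe, did not separate the genotypes. Il11, a gp130 cytokine made by stromal cells (A_51_P267783, mm9, chr7:4724847-4724906, minus strand), read -0.52 and -1.88 in Ip6k1+/+ and -0.01 and -2.76 in Ip6k1-/- lines. Both the brightest and the dimmest line were Ip6k1-/-, and the gap between lines was 1.36 in Ip6k1+/+ and 2.75 in Ip6k1-/-. The log2 difference of -0.18 (SE 1.03) had a 95% confidence interval from -2.88 to 2.51, which leaves changes of several fold in either direction undetectable. Without Ip6k1-/- replicate 2 the difference was 1.19, and without Ip6k1-/- replicate 1 it was -1.56.

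Csf1, the growth factor of macrophages and osteoclast precursors (A_51_P195506, mm9, chr3:107544333-107544392, minus strand), was read on 10 spots per array and gave 4.89 and 4.05 in Ip6k1+/+ and 4.31 and 4.38 in Ip6k1-/- lines. Both Ip6k1-/- lines lay between the Ip6k1+/+ lines. The log2 difference was -0.13 (SE 0.32, 95% limma confidence interval -0.97 to 0.71). This interval lies within 2-fold in either direction, but it draws on the variance of other probes. It also rests on 2 lines per genotype, and the Ip6k1+/+ lines alone differed by 0.84, so a 2-fold change is not excluded. Spots of 1 array differed by a log2 SD of 0.03 to 0.04, which covers spot noise alone and neither labelling nor hybridisation.

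Il33, a nuclear alarmin of the IL-1 family released from damaged cells, was detected in 1 line of each genotype. Its probe A_51_P122321 (mm9, chr19:30034990-30035049, plus strand) read -3.13 in Ip6k1+/+ replicate 2 and -3.19 in Ip6k1-/- replicate 2, both well above background, and -7.02 and -6.86 in the other Ip6k1+/+ and Ip6k1-/- line, both not well above background. The detected lines of opposite genotype were nearly alike, while the measured gap between lines was 3.89 in Ip6k1+/+ and 3.67 in Ip6k1-/-. Both gaps rest on values below the dimmest signals marked well above background on those arrays, -4.93 and -4.75, and are not exact. The Il33 probe was left out of the test by the detection filter. For Lif, 1 probe named AK019683 (A_51_P306109) is described in the files as leukaemia inhibitory factor, and it read -4.29 and -3.99 in Ip6k1+/+ and -3.96 and -3.67 in Ip6k1-/- lines. It lies outside the naming rule and gave a log2 difference of 0.33 (limma adjusted p = 0.994).

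Il1rl1 encodes ST2, the receptor of IL-33, made as a membrane form and as a shorter soluble form that binds IL-33 as a decoy. Probe A_51_P339793 (mm9, chr1:40504769-40504828, plus strand), annotated to transcript variant 2, read 5.16 and 4.72 in Ip6k1+/+ and 6.62 and 5.41 in Ip6k1-/- lines, the first of the Ip6k1-/- values saturated and so possibly too low. The splice-spanning probe A_52_P19955, annotated to the same variant, read -0.56 and -0.67 in Ip6k1+/+ and 1.68 and -0.17 in Ip6k1-/- lines. Probe A_52_P484194 (mm9, chr1:40521952-40522011, plus strand), annotated to transcript variant 1, read 3.02 and 3.64 in Ip6k1+/+ and 5.64 and 3.92 in Ip6k1-/- lines. On each of the 3 probes both Ip6k1-/- lines lay above both Ip6k1+/+ lines, which held for 18.4% of all tested probes. The 3 probes read 1 gene in the same 4 RNA samples and are not independent.

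The log2 differences of the 3 Il1rl1 probes were 1.08 (SE 0.45, 95% confidence interval -0.09 to 2.25), 1.37 (SE 0.64, -0.32 to 3.05) and 1.44 (SE 0.62, -0.17 to 3.06), in the order given above, and all 3 intervals took in 0. Limma p-values ran from 0.0641 to 0.0904 and the adjusted p was 0.994 for each. Ip6k1-/- replicate 1 stood 1.52, 2.15 and 2.11 log2 units above the mean of the other 3 lines. Ip6k1-/- replicate 2 lay 0.47, 0.44 and 0.58 above the Ip6k1+/+ mean, short of the 0.9 that the cutoff asks of each line, so Il1rl1 did not pass it.

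Ptgs2 encodes cyclooxygenase-2, the inducible enzyme that opens prostaglandin synthesis, and Ptges the microsomal synthase that makes prostaglandin E2 from its product. Ptgs2 probe A_51_P254855 (mm9, chr1:151954744-151954803, plus strand), printed on 10 spots, read 0.84 and 0.27 in Ip6k1+/+ and 1.04 and 0.55 in Ip6k1-/- lines. Its second probe, A_52_P224760 (chr1:151954416-151954475), read 1.22 and 0.69 in Ip6k1+/+ and 1.49 and 0.92 in Ip6k1-/- lines. The genotypes overlapped and both probes ordered the 4 lines alike. The log2 differences were 0.24 (SE 0.33, 95% confidence interval -0.61 to 1.09) and 0.25 (SE 0.33, -0.60 to 1.11).

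Ptges (A_51_P312327, mm9, chr2:30747838-30747897, minus strand) read 0.37 and -1.82 in Ip6k1+/+ and -4.52 and -1.37 in Ip6k1-/- lines, so Ip6k1-/- replicate 2 lay between the Ip6k1+/+ lines. Its log2 difference of -2.22 (SE 1.28) had a 95% confidence interval from -5.56 to 1.11 and a limma adjusted p of 0.994. The gaps between lines were 2.18 in Ip6k1+/+ and 3.15 in Ip6k1-/-. Without Ip6k1-/- replicate 1 the difference was -0.65, and without Ip6k1-/- replicate 2 it was -3.80. The value of -4.52 lay near the dimmest signal marked well above background on its array, -4.75. Background correction by normexp gave a smaller Ptges difference of -1.68. The mean difference exceeded 2-fold, yet 1 line carried it, so the cutoff, which asks for both lines, was not met.

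Tnfaip3 and Nfkbia, both targets and brakes of NF-kB, had negative mean differences with wide errors. Tnfaip3 (A_52_P412417, mm9, chr10:18720994-18721053, minus strand) read 3.40 and 1.55 in Ip6k1+/+ and 1.70 and 0.74 in Ip6k1-/- lines. Ip6k1-/- replicate 1 was above the lower Ip6k1+/+ line, so the genotypes overlapped. The log2 difference was -1.26 (SE 0.71, 95% confidence interval -3.10 to 0.59, limma adjusted p = 0.994), and it was -0.33 without Ip6k1+/+ replicate 1.

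Nfkbia, on the splice-spanning probe printed above, read 7.03 and 5.42 in Ip6k1+/+ and 6.24 and 4.22 in Ip6k1-/- lines, with the first value saturated and so possibly too low. Ip6k1-/- replicate 1 lay between the Ip6k1+/+ lines here too. The measured log2 difference was -0.998 (SE 0.85, 95% confidence interval -3.23 to 1.23), and it was 0.012 without Ip6k1-/- replicate 2 and -2.01 without Ip6k1-/- replicate 1. The saturated value can only make these read less negative than they are. For Tnfaip3 and Nfkbia alike, the replicate 2 line was the dimmer of its genotype in both genotypes.

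**Figure D3:**
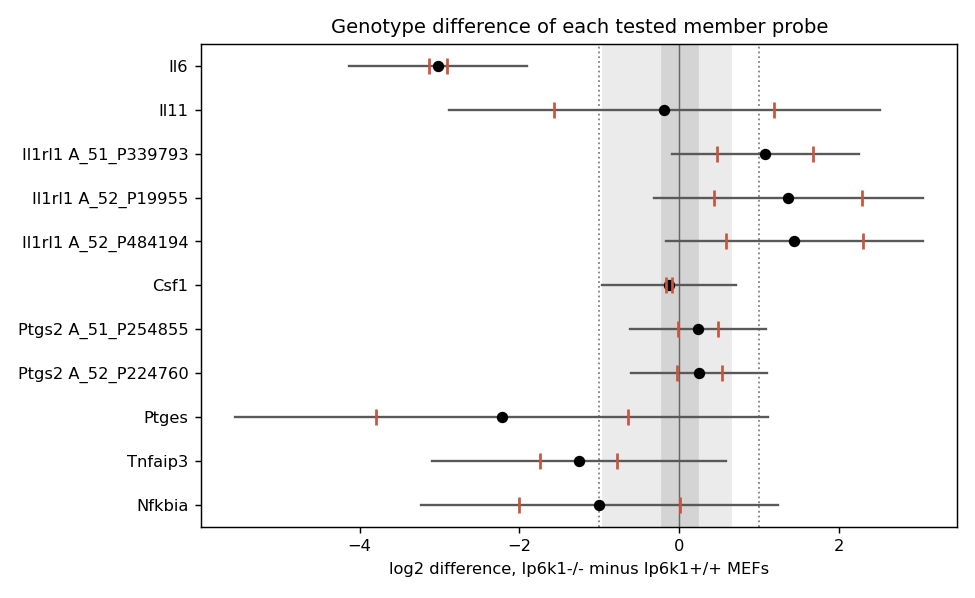
Log2 difference, Ip6k1-/- minus Ip6k1+/+, of each of the 11 tested member probes (x axis), with black points for the mean difference, grey lines for the limma 95% confidence interval and red ticks for each Ip6k1-/- line minus the Ip6k1+/+ mean. Shading spans the 5th to 95th (light, -0.96 to 0.65) and 25th to 75th (dark, -0.21 to 0.24) percentiles of all tested gene names, and dotted lines mark a 2-fold difference. The interval of Il6 lies clear of 0 but rests on Ip6k1-/- values that were not well above background, that of Nfkbia rests on a saturated Ip6k1+/+ value, and the red ticks of Il11, Ptges and Nfkbia lie far apart.

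A set of 3 lists gave the wider pathways: 32 genes of NF-kB signalling, 28 of cytokines, receptors and JAK-STAT signalling, and 16 of prostaglandin synthesis and receptors, none of them members. All 76 were on the array and 61 were tested. By the 2-fold cutoff 5 of the 61 were lower and 0 higher, where 2.5% and 1.49% of all tested gene names were, and without Ip6k1+/+ replicate 1 there were 2 lower and 2 higher. The lists were drawn up with earlier results of these data known, and Il15 and Ptgis passed the detection filter only through Ip6k1+/+, so nothing is read from the count. The 5 were Nfkb1, Nfkbie, Il1r1, Il15 and Ptgis, and none of the 90 tested probes reached an adjusted p of at most 0.05, with 0.853 the lowest. The median log2 difference, on the brightest tested probe of each gene, was -0.12 for NF-kB signalling, -0.52 for cytokines, receptors and JAK-STAT, and 0.02 for prostaglandins, against 0.04 over all tested gene names.

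In the NF-kB list, 19 of 31 tested genes had negative and 12 positive differences. The share of negative differences over all tested gene names is not given here, and the lists were drawn up with earlier results known. Nothing is read from these counts. Nfkbie, which encodes the inhibitor IkB-epsilon, read 1.06 and -0.18 in Ip6k1+/+ and -0.60 and -1.11 in Ip6k1-/- lines, a log2 difference of -1.30 (SE 0.49, limma unadjusted p = 0.0493). Nfkb1, the gene of the p105 precursor and p50 subunit, passed the cutoff on 1 of 4 probes (A_52_P569539, log2 difference -1.17, SE 0.40), while its other probes gave -0.51, 0.09 and 0.13, so its probes disagreed. Rela, the gene of the p65 subunit, gave -0.17 and -0.13 on its probes.

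Nfkbiz and Bcl3, genes of nuclear IkB proteins and themselves NF-kB targets, had differences of -1.49 (SE 0.66) and -1.23 (SE 0.55) without meeting the cutoff in each line. Nfkbiz read 2.84 and 1.42 in Ip6k1+/+ and 1.29 and -0.01 in Ip6k1-/- lines. Bcl3 read 2.33 and 1.201 in Ip6k1+/+ and 1.09 and -0.03 in Ip6k1-/- lines. In both, the genotypes did not overlap, but the brighter Ip6k1-/- line lay close to the dimmer Ip6k1+/+ line, with gaps inside each genotype of more than 1 log2 unit. Relb, which encodes a subunit of the alternative pathway, gave -0.68, and Tnfrsf1a, the gene of the main TNF receptor, -0.63, and neither reached 2-fold.

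Of 20 tested genes among cytokines, receptors and JAK-STAT, 17 had negative differences, with 0 higher by the cutoff. For the reasons given for the NF-kB list, nothing is read from these counts either. Il1r1, the signalling receptor of IL-1, read 2.16 and 1.04 in Ip6k1+/+ and 0.69 and 0.40 in Ip6k1-/- lines, a log2 difference of -1.05 (SE 0.43, limma unadjusted p = 0.060). Il15, a cytokine that supports natural killer and memory T cells, passed on 1 dim probe (A_52_P15461), at least 1.54-fold lower. That probe was well above background only in the Ip6k1+/+ lines, and the other Il15 probe gave -0.45. The upstream cytokine genes Il1a and Il1b were not well above background in any line, and Tnf was well above it in 1 line.

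The receptors of the members had differences closer to 0 than that of Il6, a contrast that was not tested. Il6st, which encodes gp130, read 3.75 and 2.37 in Ip6k1+/+ and 2.53 and 2.16 in Ip6k1-/- lines, a log2 difference of -0.72 (SE 0.50). Il6ra gave -0.07 and -0.36 on its probes, and Il11ra1 -0.27 and -0.33. Lifr gave -0.17, -0.64 and -0.59 on its 3 tested probes, and Osmr, the gene of the oncostatin M receptor chain that pairs with gp130, -0.86 and -0.92. Il1rap, the chain that ST2 needs to signal, gave -0.50 and -0.70. Csf1r was not well above background in both lines of either genotype and was not tested. None of these receptor genes passed the cutoff.

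In the prostaglandin list 1 of 10 tested genes was lower. Ptgis, which encodes prostacyclin synthase, read -2.88 and -3.35 in Ip6k1+/+ and -5.29 and -5.64 in Ip6k1-/- lines, where it was not well above background, a bound of at least 3.03-fold (limma adjusted p = 0.853). Like Il6, it passed the detection filter only through the Ip6k1+/+ lines. Among the receptors for prostaglandin E2, Ptger2 and Ptger3 were not well above background in any line. Ptger1 was well above it in 1 line of each genotype. Ptger4 gave a log2 difference of -1.01 (SE 1.09) on its tested probe, with Ip6k1-/- replicate 1 at -4.75 and the other 3 lines between -2.15 and -1.53. The value of -4.75 was not well above background, so the Ptger4 difference is not exact.

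**Figure D4:**
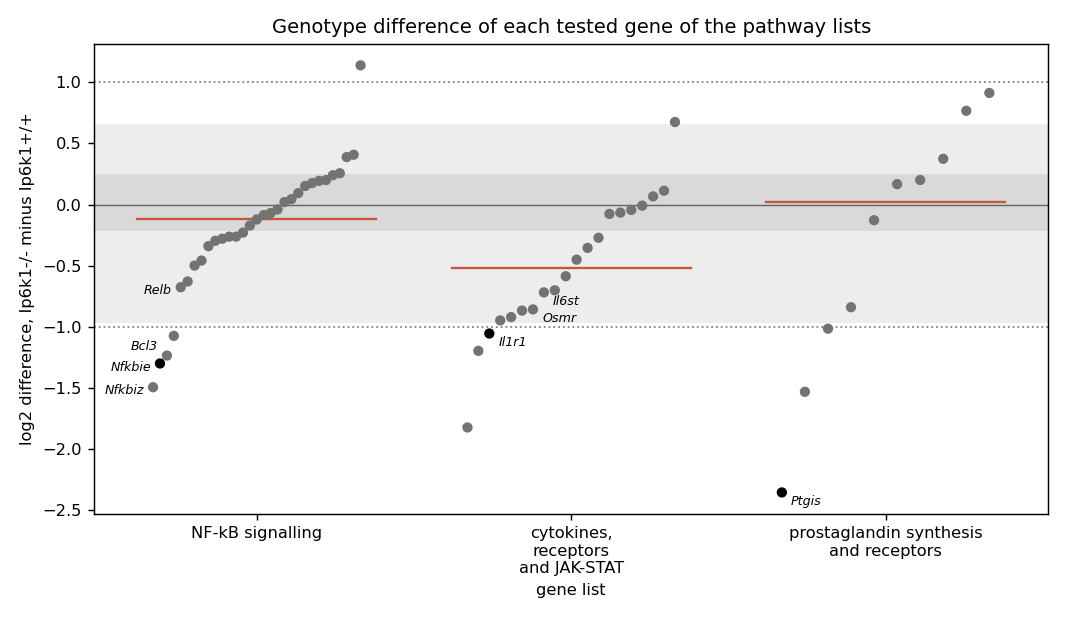
Log2 difference, Ip6k1-/- minus Ip6k1+/+ (y axis), of each tested gene of the 3 pathway lists (x axis, genes ordered by value within a list), on the brightest tested probe of the gene. Black points passed the 2-fold cutoff on that probe, red lines are the list medians of -0.12, -0.52 and 0.02, dotted lines mark a 2-fold difference, and shading spans the 5th to 95th (light) and 25th to 75th (dark) percentiles of all tested gene names. Nfkb1 and Il15 passed on a dimmer probe and so are not black.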

How the data were processed

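RNA of 4 MEF lines, 2 Ip6k1+/+ and 2 Ip6k1-/-, was measured by the authors on 4 single-colour Agilent arrays of 1 slide, read on 1 scanner and scan day. The deposited scanner files hold background-subtracted intensity per spot, made per the file headers with Agilent Feature Extraction 10.5.1.1, with probe positions in mm9. The deposited log2 table holds the authors' GeneSpring values, shifted to the 75th percentile. It tracked the values computed here up to 1 constant per array (median deviation 0.0025), with column medians from -4.13 to -4.04 and a constant of unstated origin.

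Control spots and outlier-flagged spots (96 to 133 of 43379 per array) were left out, the log2 intensity was set to each array's 75th percentile (607 to 746), and spots of a probe were averaged. Probes well above background in both lines of at least 1 genotype were tested with limma 3.58.1 in R 4.3.3 (lmFit, eBayes with a variance trend, Benjamini-Hochberg over 21572 probes), beside the study's 2-fold difference of means, to which the limit on each Ip6k1-/- line and the detection filter were added here. The fit was tested on simulated data. Precision is limited by having 2 arrays for each genotype. Promoter sequences are from RefSeq, and all 10 members matched by symbol.

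Named were every member probe, Ip6k1, pathway-list genes past the cutoff, the members' receptors and partners, up to 5 further list genes of lowest p, and the 5 gene names most like Il6. The members and lists were chosen with earlier results of these data known. Alternatives covered background correction, normalization, the detection filter, the deposited table, the replicate block, the test, the cutoff and each line left out.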

Additional observations from a re-analysis of the deposited data

How the results depend on the processing

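The Il6 difference kept its sign under all 12 alternatives that gave it a value, and it passed the 2-fold cutoff in each. It ran from -3.02 to -1.86 across settings and from -3.46 to -2.58 with each line left out. Dropping the detection filter, the replicate block, the variance trend, the test and the cutoff cannot change a mean difference. Under these alternatives the sign was fixed in advance. Quantile normalization, the deposited values and normexp could move it and gave -2.99, -2.49 and -1.86. The Il6 difference has no value where probes must be well above background on all 4 arrays, by construction of that filter. With it, 0 members were lower and 0 members had an unadjusted p below 0.05. That filter left 113 gene names higher, 217 lower, 3 pathway-list genes lower and 1 probe past the adjusted p. With the mean difference alone, 1 member was higher (Il1rl1) and 3 lower (Il6, Ptges, Tnfaip3), with 359 higher and 750 lower over all gene names and 1 and 13 in the pathway lists. Normexp gave 72 higher, 231 lower and 0 probes past the adjusted p. No filter gave 375, 880 and 1. Quantile normalization gave 3 pathway-list genes lower and 0 probes past the adjusted p, and the methods' t-test gave 0. The causes were not tested.

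Leaving out 1 line at a time gave 237 to 711 gene names higher, 389 to 1138 lower, 0 to 0 probes past the adjusted p, 0 to 2 members higher, 1 to 4 lower and 1 to 3 at an unadjusted p below 0.05, with 1 to 4 pathway-list genes higher and 2 to 15 lower. Il6 was lower in each, Ptges without Ip6k1+/+ replicate 2 or Ip6k1-/- replicate 2, Tnfaip3 without Ip6k1+/+ replicate 2 or Ip6k1-/- replicate 1, and Nfkbia without Ip6k1-/- replicate 1. Il11 was lower without Ip6k1-/- replicate 1 and, with Il1rl1, higher without Ip6k1-/- replicate 2. The sign of the measured difference turned for Il11 (-1.56 to 1.19), Csf1 (-0.55 to 0.29), both Ptgs2 probes (-0.044 to 0.52 and -0.031 to 0.54) and Nfkbia (-2.01 to 0.012, against a saturated Ip6k1+/+ value, so its turn is not shown).

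The replicate numbers name lines and do not pair them. Their differences correlated between genotypes at 0.48 across 21572 probes, which are not independent. With the replicate number as a block, 4 members (Il6, Il1rl1, Tnfaip3, Nfkbia) had an unadjusted p below 0.05 and none an adjusted p of at most 0.05, the lowest being 0.212. No member probe reached an adjusted p of at most 0.05 under any alternative.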

Other observations

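On 7 of the 11 tested member probes (63.6%), for 5 genes, the replicate 1 line was brighter than the replicate 2 line in both genotypes. The genes were Il11, Ptgs2, Tnfaip3, Nfkbia and, in Il1rl1, the probes of variant 2. On 0 member probes was the replicate 2 line brighter in both. Over all tested probes the shares of these orders were 28.2% and 34.7%. The numbers name lines and give no order, so 63.6% belongs beside both shares added, not beside 28.2% alone. Probes of the same gene, as for Ptgs2 and Il1rl1, are not independent, and nothing is read from these counts. Il33, which was not tested, was brighter in the replicate 2 line of both genotypes.

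In the pathway lists, Il1rn, which encodes the IL-1 receptor antagonist, read -0.20 and -3.69 in Ip6k1+/+ and -0.78 and -6.76 in Ip6k1-/- lines on probe A_52_P431159. Lines of 1 genotype differed by a measured 3.50 and 5.98 log2 units against a genotype difference of -1.82. The value of -6.76 was not well above background, and the dimmest signal so marked on that array was -4.67. The gap of 5.98 and the difference of -1.82 rest on this value and are not exact. Traf1, an NF-kB target that binds TNF receptors, read -3.39 in both Ip6k1+/+ lines and -3.03 and -1.47 in Ip6k1-/- lines.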
